A study of Mus musculus with 2 samples.

Results

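The BCL2 family genes examined here were Bcl2, Bcl2l1, Mcl1, Bax, Bak1, Bid, Bad, Bcl2l11, Bbc3 and Pmaip1, 10 genes out of 32448 genes and unnamed features on the array. They were chosen by name, as the best-known survival and death genes of the family, but with earlier results of these data known. Every non-control probe whose RefSeq accession belonged to one of them was read, which gave 13 probes. RNA came from bone marrow-derived macrophages (BMDMs), which are macrophages grown from marrow with M-CSF, of Crif1 f/f mice, which were male and 8 weeks old. Both cultures carried the floxed Crif1 allele, and no Cre is stated for the mice of the arrays. One culture was untreated and the other received IL-4, a cytokine that drives macrophages toward the M2 state, and both are labelled 18 h. Each was hybridised to 1 single-colour array, so no difference below has a replicate check and no p-value is given.

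Proteins of the BCL2 family decide, at the outer membrane of the mitochondrion, whether a stressed cell releases cytochrome c and dies by apoptosis. Survival members (BCL2, BCL-XL and MCL1) hold the pore formers BAX and BAK in check, and BH3-only proteins either activate the pore formers directly or occupy the survival members. In macrophages, as in other blood cells, survival depends on growth factors such as M-CSF, and much of the control of these proteins lies in protein stability, cleavage and phosphorylation, which RNA arrays do not read.

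IL-4 acts through the transcription factor STAT6, and several BH3-only genes are known targets of FOXO factors or p53, so the start regions of the genes were read for the matching letters. RefSeq start windows on GRCm38.p6, from 250 bases before to 50 after a transcription start, were held for 9 of the 10 genes, 15 windows in all; none was held for Pmaip1. The STAT6-type motif TTCNNNNGAA was found in 1 of the 15 windows, that of Bcl2l1, against 6.95% of all 32851 windows in the table. The STAT5-type motif TTCNNNGAA was found in 0 of the 15, against 8.30% of all. The FOXO-type motif TGTTTAC was found in 2, those of Bcl2l11 and Bbc3, against 3.65% of all, and a p53 half-site in 1, that of Bax, against 8.36%. Both strands were searched, and a match describes letters in the window, not a binding site. The stretches around the 4 matches are shown in the direction of the gene, with the motif in capitals, because these are the family's matches to the factors named above. The match of Bcl2l1 began 4 bases before the start and ran across it, and those of Bcl2l11, Bbc3 and Bax began 227, 167 and 201 bases before it. The match of Bcl2l11 lay on the opposite strand.
Bcl2l1, chr2:152828472-152828501, minus strand: agtgctttTTCTTCAGAAtcctgctcgcca
Bcl2l11, chr2:128125788-128125842, plus strand: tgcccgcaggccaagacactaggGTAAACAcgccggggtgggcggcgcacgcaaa
Bbc3, chr7:16310069-16310125, plus strand: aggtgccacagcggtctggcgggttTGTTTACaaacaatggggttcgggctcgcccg
Bax, chr7:45467065-45467124, minus strand: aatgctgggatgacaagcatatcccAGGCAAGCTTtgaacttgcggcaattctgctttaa

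Bcl2, the member with the largest positive difference below, held none of these motifs in its start windows. The 250 bases before one of its starts are shown for that reason, in lower case throughout because no motif was found in them, and 74.8% of them were G or C.
Bcl2, chr1:106714291-106714540, minus strand: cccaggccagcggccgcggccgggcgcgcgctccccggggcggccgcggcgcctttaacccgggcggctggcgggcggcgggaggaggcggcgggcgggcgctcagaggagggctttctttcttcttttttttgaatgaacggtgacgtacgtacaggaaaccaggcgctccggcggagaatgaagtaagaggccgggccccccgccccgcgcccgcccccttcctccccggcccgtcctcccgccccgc

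All 10 genes were well above background on both arrays by the flag of the scanner software, no member spot carried an outlier flag, and none was saturated. Intensities below are background-subtracted and not scaled between arrays. Differences are IL-4 minus untreated on the log2 scale, after subtraction of the 75th percentile of each array, which was 9.84 without and 9.94 with IL-4. Genes with more than 1 probe are represented by the brightest one. The error that the software gives for an intensity was 10% to 10.7% for the member probes, which comes to 0.20 to 0.22 for a log2 difference. It was thus nearly the same at every member probe, and a comparison with it is close to a fixed cut. A smaller error, the SD of the difference between spots of probes printed in 10 spots at like signal, was 0.045 to 0.11. Neither error covers the spread between cultures.

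None of the 10 genes differed by 2-fold or more. As background, 19743 genes had a signal above background on 1 array or both, and of these 2.86% were higher by 2-fold or more with IL-4 and 4.47% were lower by as much. At 1.5-fold, 1 member, Bcl2, was higher, where 6.11% of all genes were, and 1 member, Pmaip1, was lower, where 11.0% of all genes were. These shares, also given further down, include genes above background on 1 array only. The members, pathway genes and cell type markers set beside them were measured on both. Among genes measured on both, 1.5-fold, a log2 difference of 0.58, lay near the 5th and 95th percentiles given below. The shares past 1.5-fold or 2-fold among those genes alone were not computed. Of the 10 differences 8 were positive and 2 negative, and the signs of Mcl1, Bax and Bad changed between processing settings. The median of the 10 was 0.10, beside a median of -0.01 over the 17242 genes measured on both arrays. Of those genes 49.6% lay above -0.01, the difference of Bad, and 43.3% above 0.02, that of Mcl1. Of the 10, 5 lay between the 25th and 75th percentiles of those genes, -0.19 and 0.14. Only Bcl2 and Pmaip1 lay outside the 5th and 95th percentiles, -0.62 and 0.56, and only these exceeded 2 times the software error. By the smaller spot SD, 5 of the 10 exceeded 3 times that error, namely Bcl2, Pmaip1, Bcl2l1, Bid and Bbc3. These are also the members outside the 25th and 75th percentiles, as 50% of the genes measured on both arrays are. Passing this cut thus does not by itself set a member apart. The share of all genes past either error was not computed. In RNA from whole cultures, fewer cells of a type and less RNA per cell cannot be told apart.

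**Figure D1:**
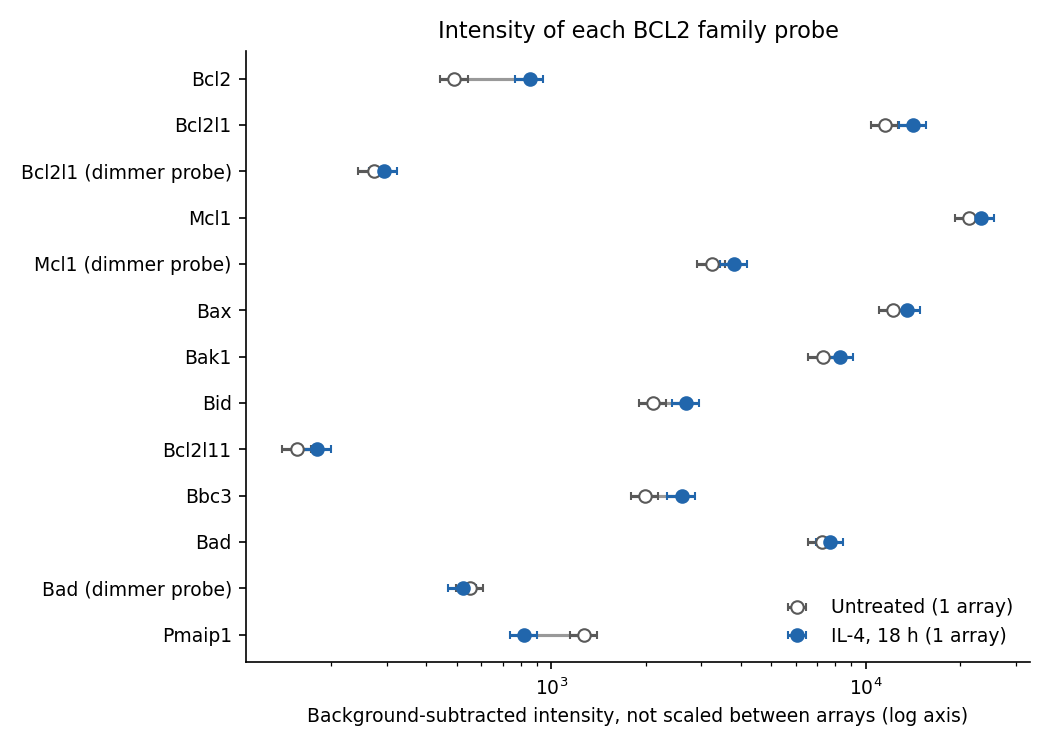
Background-subtracted intensity (log axis, not scaled between arrays) of each member probe on the untreated array (open circles) and the IL-4 array (filled circles), with the scanner software's error as bars. Bcl2 reads 492 and 854 and Pmaip1 1275 and 821, and elsewhere the pairs of points lie close together.

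All 3 survival genes had positive differences, from 0.02 to 0.70, and Bcl2 had the largest of them. Bcl2, the founding gene of the family, had an intensity of 492 in untreated and 854 in IL-4-treated BMDMs. The log2 difference was 0.70, a 1.62-fold higher signal, with a software error of 0.20 and a spot SD of 0.061. Bcl2 was read by 1 probe in 1 spot, so no second probe could be set beside it, and which of its transcripts the probe reads was not examined. Of all genes measured on both arrays, 3.69% had a higher difference, and 7.64% had a difference at least as large in either direction.

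Bcl2l1, which encodes BCL-XL and a shorter splice form with the opposite effect, gave intensities of 11517 and 14189 at its brighter probe, untreated and IL-4 in that order. That difference was 0.20, equal to its software error within rounding, and 81.3% of genes had a lower one. At the dimmer Bcl2l1 probe the intensities were 272 and 293 and the difference 0.01. Both were positive, and the splice forms cannot be told apart here because no probe sequences were used.

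Mcl1 encodes a short-lived survival protein that myeloid cells depend on. The brighter Mcl1 probe read 21388 in untreated and 23293 with IL-4, a difference of 0.02. The dimmer probe read 3242 and 3815, a difference of 0.14. Both were smaller than the software error, and the sign of the brighter probe turned under 4 of 12 other processing settings, down to -0.08 with quantile normalization.

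The pore formers lay near zero. Bax, whose product moves from the cytosol to mitochondria when activated, had intensities of 12242 and 13572 and a difference of 0.05. Bak1, whose product sits in the mitochondrial membrane already, had 7308 and 8296 and a difference of 0.08. Each was well within its software error of 0.20, and the difference of Bax turned negative under 3 of the 12 other settings, to -0.04 at the lowest.

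The BH3-only genes are given by class. Bid, Bcl2l11 and Bbc3 encode the activators BID, BIM and PUMA, and their differences of 0.11 to 0.29 were all positive. Bad and Pmaip1 encode the sensitizers BAD and NOXA, which bind survival proteins, and both differences were negative with the scaling used here. That of Bad was positive under median, spike-in and no scaling, which raised the differences of all genes.

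Bbc3 had the largest difference of the activators, with intensities of 1990 in untreated and 2603 in IL-4-treated BMDMs. The difference of 0.29 was 1.41 times its software error, and 87.3% of genes had a lower one. Bid, which links death receptors to mitochondria when caspase-8 cleaves it, went from 2107 to 2687, a difference of 0.25, and 85.3% of genes had a lower one.

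Bcl2l11 was read from a dim spot, at 156 in untreated and 180 in IL-4-treated BMDMs. Its difference of 0.11 equalled the spot SD of 0.11 at that signal and was smaller than the software error of 0.22. Bbc3 and Bcl2l11 are the genes with a FOXO-type match shown above, and the probe of Foxo1, which encodes a FOXO factor, read 1134 and 1237 with a difference of 0.03. The probe of Foxo3 passed the background flag on neither array.

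Pmaip1 was the member with the lowest difference. Its intensity was 1275 in untreated and 821 with IL-4, a difference of -0.73 with a software error of 0.20 and a spot SD of 0.057. The signal was 1.66-fold lower after IL-4, and 3.49% of genes had a lower difference. Pmaip1 too was read by 1 probe in 1 spot, with no second probe to set beside it.

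Bad, whose product is held inactive by growth factor signalling through phosphorylation, was read by a pair of probes. The brighter probe read 7267 and 7717, a difference of -0.01, and the dimmer one 553 and 523, a difference of -0.18. Both lay within their software errors of 0.20 and 0.21.

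**Figure D2:**
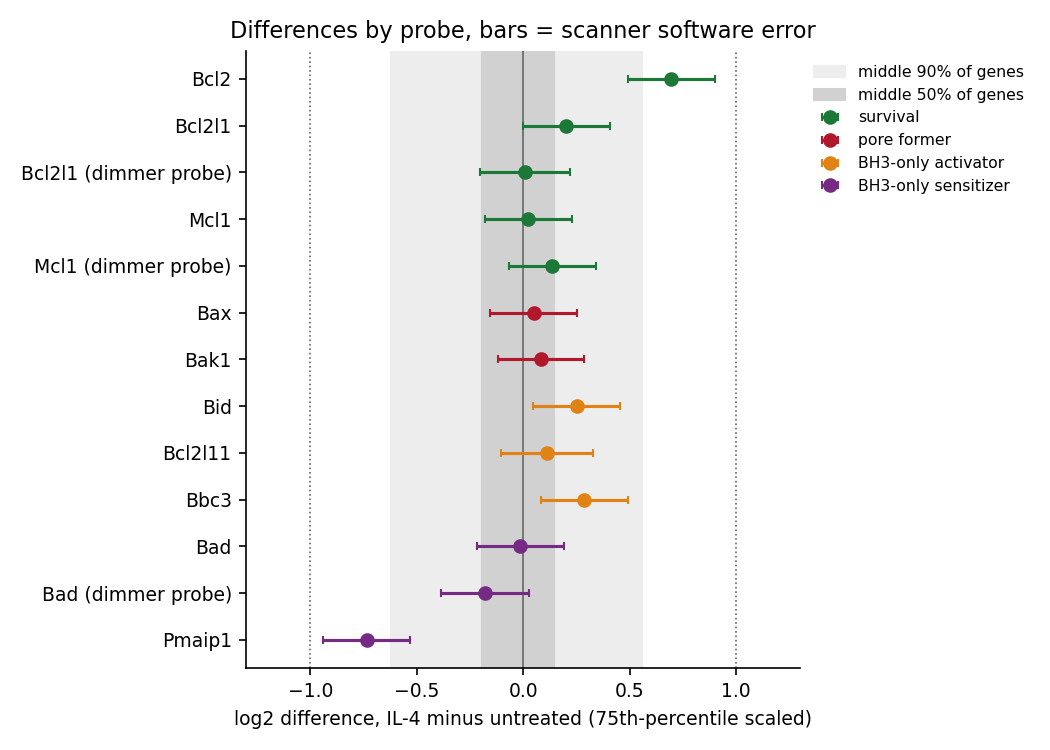
Log2 difference, IL-4 minus untreated after 75th percentile scaling, of each of the 13 member probes, coloured by role, with the software error as bars, grey bands for the middle 50% and middle 90% of all genes and dotted lines at 2-fold. Bcl2 at 0.70 and Pmaip1 at -0.73 lie beyond the pale band, and no probe reaches the dotted lines.

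For partners that bind one another, the difference between their differences does not depend on a constant scaling of the arrays. NOXA binds MCL1, and the ratio of Mcl1 to Pmaip1 signal was 1.69-fold higher after IL-4, a log2 change of 0.76 with a software error of 0.29. The ratio of Bcl2 to Bax was higher by a log2 value of 0.65, or 1.57-fold, and that of Bcl2 to Bcl2l11 by 0.58, with errors of 0.29 and 0.30. The largest of the 6 ratios computed was that of Bcl2 to Pmaip1, 1.43 on the log2 scale or 2.69-fold. This ratio is set by the highest and the lowest members, and the pair is not given as binding partners.

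BCL-XL is the partner that BAD is known to bind, and the Bcl2l1 to Bad ratio differed by 0.21, below its error of 0.29. For Mcl1 and Bak1, whose proteins also bind each other, the ratio differed by -0.06, with the same error. These 2 ratios were smaller than the scanner error, and the other 4 were larger. Each of those 4 held Bcl2 or Pmaip1, so the count repeats the differences of these genes. Other pairs of binding partners were not computed.

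**Figure D3:**
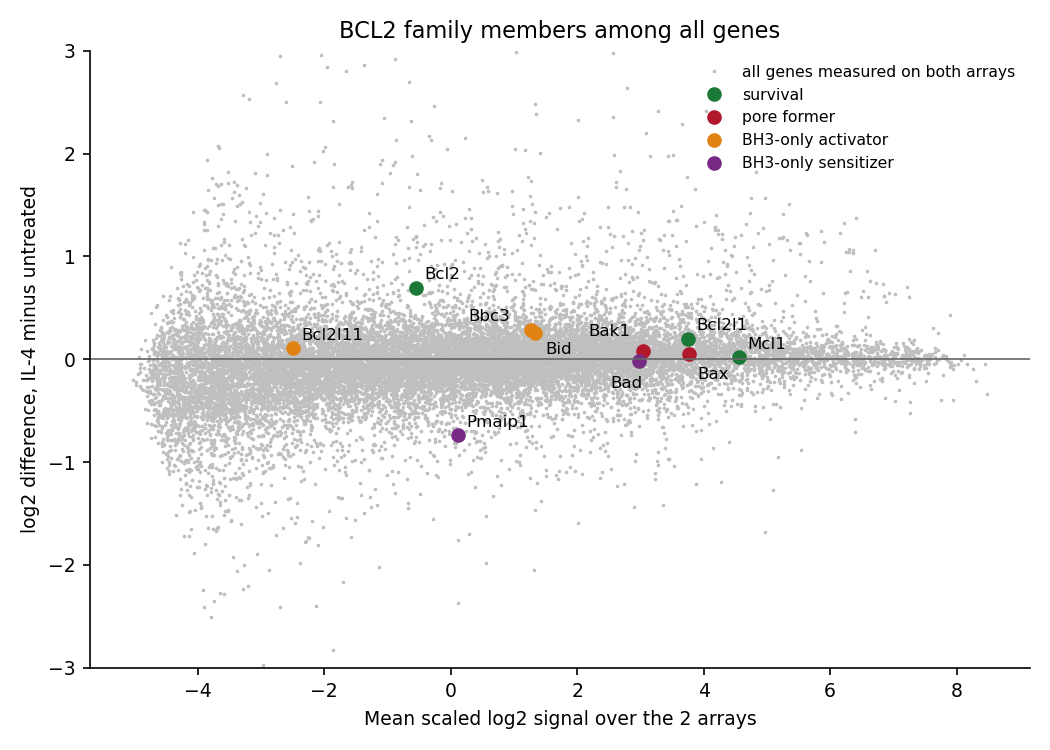
Log2 difference, IL-4 minus untreated, against mean scaled log2 signal over both arrays, for all genes measured on both arrays (grey) and the 10 members (coloured by role); 24 genes beyond 3 on the vertical axis are not drawn. Bcl2 and Pmaip1 stand toward the edges of the dense grey band at their signal, and the other 8 members lie within it.

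Differences of probes with like signal were centred close to zero where the members lay. Over the 1000 probes nearest in signal to each member probe, the median difference ran from -0.10 to 0.07. It was -0.03 around Bcl2, where the middle 50% of these probes ran from -0.18 to 0.12. Around Pmaip1 it was 0.00, with the middle 50% from -0.15 to 0.14.

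Other genes of the pathway were read from 5 lists of 61 genes in all. Both arrays measured 51 of them above background, 8 were above it on neither, and 2, Bcl2a1a and Bcl2a1b, had no probe under those names. Of the 51, 1 was higher by 2-fold or more with IL-4 and 0 were lower by as much, beside 2.86% and 4.47% of all genes, and the median difference was 0.02.

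That 1 gene was Casp6, which encodes an executioner caspase. Its intensity was 2132 in untreated and 6802 with IL-4, a difference of 1.57 or 2.98-fold. The other genes of its list, the apoptosome and caspases, did not share this size, and the median over all 12, each measured on both arrays, was 0.01.

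Apaf1, the scaffold of the apoptosome, had a difference of -0.39, Cycs, which encodes cytochrome c, 0.30, and Casp9, the caspase that the apoptosome activates, 0.04.

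Among the other BCL2 family genes, 8 of 15 were measured on both arrays, with a median of -0.02. The probe of Bcl2a1d, which encodes the survival protein A1, read 33700 in untreated and 63222 with IL-4, a difference of 0.81 or 1.75-fold. Mouse A1 has near-identical gene copies, so this signal may be shared between them and its source is uncertain. Bmf, a BH3-only gene, read 1012 and 668, a difference of -0.70.

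Bcl2l2, which encodes the survival protein BCL-W, had a difference of 0.03 and Bok, a BAX-like gene, -0.01. The mitophagy genes Bnip3 and Bnip3l had differences of 0.18 and -0.39 at their brightest probes. The 3 probes of Bnip3 ran from -0.34 to 0.18, so its sign depended on the probe, and the 4 of Bnip3l from -0.39 to -0.22. Not above background on either array were Bcl2l10, Bik, Hrk, Bcl2l14 and Bcl2l15.

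All 7 inhibitors of apoptosis were measured on both arrays, with a median of -0.07. Naip2, a sensor of bacterial proteins in the inflammasome, read 3158 and 2498, a difference of -0.44. Cflar, which encodes the caspase-8 inhibitor c-FLIP, read 700 and 570 at its brightest probe, a difference of -0.40, but its 3 probes ran from -0.40 to 0.60. Xiap, the direct caspase inhibitor, had a difference of 0.02.

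Of the 11 death receptor genes 9 were measured on both arrays, with a median of 0.03, and the ligand genes Fasl and Tnfsf10 on neither. Fas, the receptor for FAS ligand, read 389 in untreated and 653 with IL-4, a difference of 0.65 or 1.57-fold. Tnf, the cytokine, was next with 562 and 731, a difference of 0.28.

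The inducers and modifiers of the members were 16 genes, 15 of them measured on both arrays, with a median of 0.02. Pim1, a kinase that phosphorylates BAD, read 218 and 449, a difference of 0.94 or 1.92-fold. Ddit3, which encodes the stress factor CHOP, read 909 and 1550, a difference of 0.67 or 1.59-fold.

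Trp53, which encodes p53, the inducer of Bax, Bbc3 and Pmaip1, had a difference of -0.05, and its target and inhibitor Mdm2 0.02. At 1.5-fold, 5 of the 51 genes were higher, namely Casp6, Pim1, Bcl2a1d, Ddit3 and Fas, and 1, Bmf, was lower, beside 6.11% and 11.0% of all genes.

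**Figure D4:**
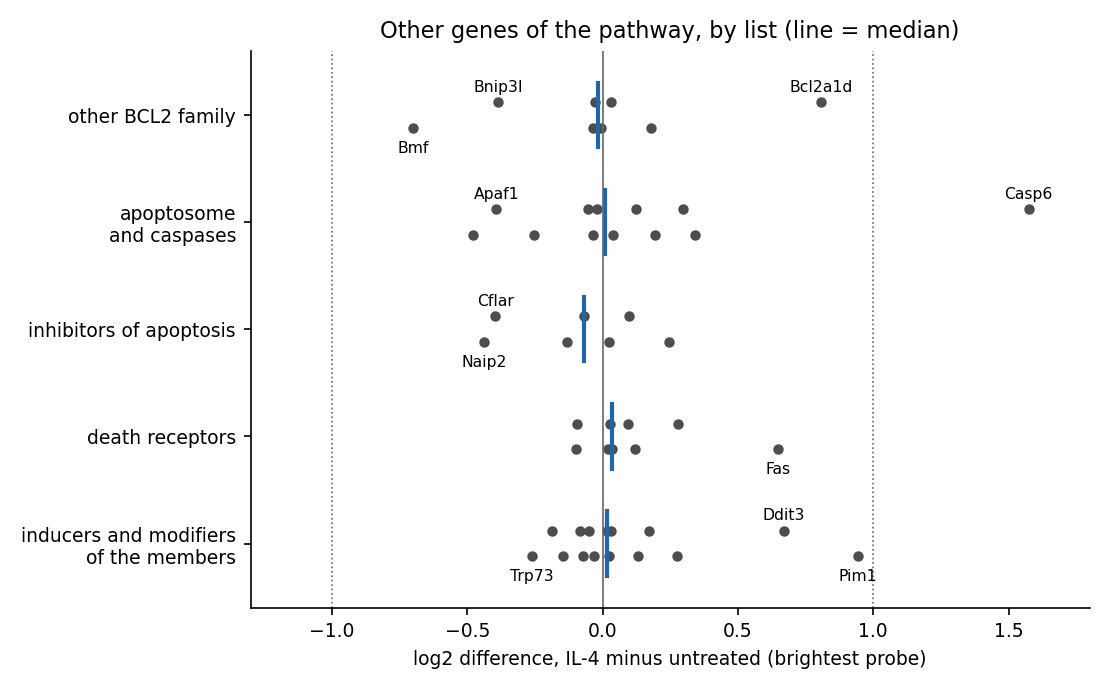
Log2 difference, IL-4 minus untreated after 75th percentile scaling, of the 51 pathway genes measured on both arrays, by list (1 point per gene, brightest probe, shifted vertically for legibility), with the list median as a blue line and dotted lines at 2-fold. All 5 medians lie between -0.07 and 0.03, and only Casp6 at 1.57 passes a dotted line.

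The array labelled IL-4 carried the response known for that cytokine: Arg1 read 84.9 and 19688, a difference of 7.76, Chil3 and Mrc1 had differences of 3.83 and 2.42, and Retnla, whose untreated spot fell short of the background flag, had a difference of at least 9.22. Of the 8 macrophage markers 7 had a probe and all 7 were above background on both arrays, with a median difference of -0.71. Cd14, Fcgr1 and Mertk were at least 2-fold lower, beside 4.47% of all genes. With Itgam at -0.71 and Lyz2 at -0.70, 5 of the 7 were at least 1.5-fold lower, beside 11.0% of all genes. The 3 probes of Itgam ran from -0.71 to -0.24, so its place in that count depended on the probe. Adgre1 and Csf1r had differences of 0.17 and 0.09 at their brightest probes. The summed intensity of the 7 macrophage markers was 296935 untreated and 273913 with IL-4. Csf1r was the brightest of them, at 146026 and 166510. Of 8 neutrophil markers 7 were measured on both arrays, with a median difference of -0.23 and 2 at least 1.5-fold lower, Ngp at -0.80 and Camp at -0.61. The 2 probes of Camp ran from -0.61 to -0.45. Ltf was at -0.54, and the sums of 39356 and 37586 were mostly S100a9, at 26443 and 26347. Of 4 eosinophil markers 3 were measured on both arrays, with a median of 0.28 and sums of 929 and 1027. The sums were mostly Siglecf, at 772 and 817 with a difference of -0.02. Ccr3 and Prg2, at 0.28 and 0.37, were dim, with intensities from 70 to 110. Of 8 lymphocyte markers 3 were measured on both arrays, with a median of -0.36 and sums of 1004 and 828, and the other 5 were above background on neither. All 5 fibroblast markers were measured, with a median of -0.03 and sums of 90811 and 82948. These sums were mostly Col1a1, at 58153 and 49150, and the differences ran from -0.34 for Col1a1 to 0.52 for Lum. No measured marker outside the macrophage list differed by 2-fold, and the part of other cells in the member differences was not tested.

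The members were recomputed under other scalings, probe rules and background steps. Over 12 other settings, 7 of the 10 genes kept their sign in all 12, but 4 of the settings (outlier spots kept, the authors' values and both rules for several probes) could hardly move a gene with 1 probe. Bcl2 ran from 0.63 to 1.02 and Pmaip1 from -0.79 to -0.41, and the values of 1.02 and -0.41 were both those of scaling on spike-in controls. Bid ran from 0.20 to 0.57, Bbc3 from 0.23 to 0.61, Bcl2l1 from 0.11 to 0.52, Bcl2l11 from 0.05 to 0.43 and Bak1 from 0.01 to 0.40. The genes that changed sign were Mcl1, Bax and Bad, the 3 with the smallest differences.

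Relative to the median of all genes in the same setting the ranges were narrower. Bcl2 then lay between 0.68 and 0.73 and Pmaip1 between -0.74 and -0.60. Bbc3 lay between 0.27 and 0.36 and Bid between 0.23 and 0.28. Mcl1, Bax and Bad still crossed zero, at -0.07 to 0.11, -0.03 to 0.18 and -0.08 to 0.02.

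**Figure D5:**
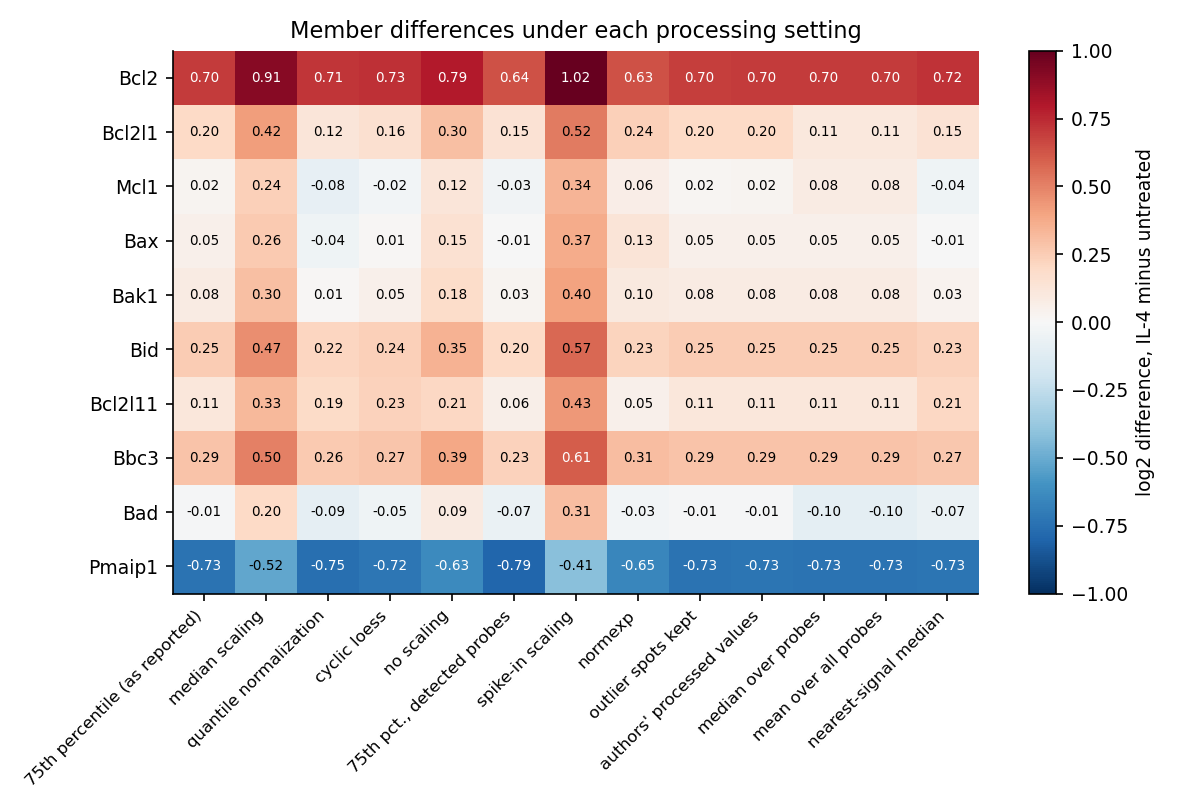
Log2 difference, IL-4 minus untreated, of each member (rows) under the reported setting (first column) and the 12 others (columns), with the value in each cell and red for higher and blue for lower after IL-4. The rows of Bcl2 and Pmaip1 keep their colour throughout, and those of Mcl1, Bax and Bad hold both signs.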

How the data were processed

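RNA of 1 untreated and 1 IL-4-treated BMDM culture was labelled with Cy3 and hybridised to 1 Agilent array each, annotated on mm9. The intensity of each spot was deposited as Feature Extraction 10.10.1.1 wrote it, background-subtracted and detrended within the array. The authors also deposited processed log2 values, whose differences equalled those of the scanner intensity at all 13 member probes after a constant offset of -0.10, with a largest gap of 7.6e-07; their medians were 0.16 (untreated) and 0.016 (IL-4), and their centring is not given in the sources used here.

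Control and outlier spots were left out, spots of a probe were averaged as log2, and each array was scaled by subtracting its 75th percentile. Of 39429 probes 27223 were named through RefSeq accessions (GRCm38.p6 table). A probe dim on 1 array would get a bound against the lowest signal well above background there (29.2 untreated, 27.9 IL-4). The number of arrays limits the precision, and no test was run. Gene counting was first tested on simulated data.

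The members and lists were chosen with earlier results of these data known. The lists were other BCL2 family, apoptosome and caspases, inhibitors of apoptosis, death receptors, inducers and modifiers, and cell type markers. Named were all members, pathway genes past 2-fold, the 2 genes of each list with the largest difference on both arrays, and 4 IL-4 response genes, apart from items not reported here; Bnip3, Bnip3l, Bcl2l2, Bok, Apaf1, Cycs, Casp9, Xiap, Trp53, Mdm2, Foxo1 and Foxo3, Trp73 in a plot and the cell type markers named were added after their values were seen. Alternatives were other scalings, normexp (offset 50 on the median pixel intensity), flagged spots kept, other probe rules, dim-probe filters and thresholds, and the authors' values. R 4.3.3, limma 3.58.1, Python 3.11.15, numpy 2.4.6, pandas 2.3.3 and matplotlib 3.10.9 were used.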

Additional observations from a re-analysis of the deposited data

How the results depend on the processing

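The median over the 10 members, 0.097, was 0.31 with median scaling, 0.20 with no scaling, 0.042 with the 75th percentile taken over detected probes, and 0.42 with spike-in scaling on 7 control probes. These scalings moved the median of all genes by 0.21, 0.10, -0.05 and 0.32. The count of members at least 2-fold higher went from 0 to 1 with spike-in scaling, where Bcl2 was at 1.02. At a 1.5-fold threshold 1 member was higher and 1 lower, and 5 pathway genes were higher and 1 lower. The count of pathway genes at least 2-fold higher, 1, was 3 with median scaling, 2 with cyclic loess, 2 with no scaling, 3 with spike-in scaling and 0 at a 4-fold threshold. The count at least 2-fold lower, 0, was 1 with no filter on dim probes; that gene was Foxo3, at 31.1 in untreated and 14.9 in IL-4-treated BMDMs. All 3 members with 2 probes, Bcl2l1, Mcl1 and Bad, had the same sign at both, and neither probe of any of them reached 2-fold. Each of these differences was smaller than its software error, and the signs of Mcl1 and Bad changed between settings, so the shared sign says little. The median of the probes nearest in signal was an alternative chosen after seeing the data. No paired analysis was possible because there was a single array per condition, and no replicate could be left out.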
